A study of Mus musculus with 6 samples.

Results

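The genes described here are complement components and regulators, chosen by name as C3, C1qa, C1qb, C1qc, Cfp, Cfb, Cd55, Cd59a and Cr1l. Of these 9 genes, 8 had a named row in the array table, out of 22180 genes tested, and each of the 8 had 1 row. No row was annotated with C3 alone, so C3 is not analysed here. Affymetrix arrays were hybridised with RNA of the PU.1low URE-/- line, an acute myeloid leukaemia (AML) line derived from 1 mouse at the leukaemic stage. In that mouse the upstream regulatory element (URE) of Spi1, a distal enhancer, was deleted. Spi1 encodes PU.1, an ETS transcription factor of myeloid cells. The tested cells received DB2313, described in the labels as a PU.1 inhibitor, at 330 nM for 24 h, and the controls received the same volume of water for the same time. Both groups carried the URE deletion, grew in the same medium with conditioned supernatants, and had 3 arrays each, labelled as biological replicates. The labels do not say whether the replicates were grown separately, and the p-values therefore reflect only how far these samples spread, which may be technical.

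Complement is a cascade of plasma proteins that tags particles for uptake, attracts phagocytes and opens pores in membranes. C1q, which recognises bound antibody and dying cells, starts the classical pathway, and factor B and properdin build and stabilise the convertase of the alternative pathway. Cells protect themselves with membrane regulators that dismantle convertases or block the pore. Most of the plasma proteins come from the liver, whereas C1q and properdin are made largely by myeloid cells, and the membrane regulators are carried by most blood cells.

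Signals are on the log2 scale, and the median over all genes was 5.17. Of the 8 genes, 5 had a mean signal below that median, and background was not measured, so a low signal is not read here as a lack of transcript. The myeloid granule genes marked the line clearly, with Elane at 13.05 in both groups (n = 3 each). Of 7 myeloid progenitor and blast markers 5 lay above the median and none passed the test, and Cd34 (mean 4.61) and Ptprc lay below the median. Ptprc, the common leukocyte antigen, had only 3.31 ± 0.05 with DB2313 and 3.32 ± 0.12 with vehicle (SD, n = 3 each), so a low signal can also occur for a defining marker of the labelled cell type. Among 8 macrophage markers 2 lay above the median and none passed the test. The log2 of their summed signal was 8.04 to 8.17 with DB2313 and 8.33 to 8.41 with vehicle. Cd68, the brightest of them, weighs most in the sum and had a log2 difference of -0.47 (limma adjusted p = 0.0554). Mrc1 alone differed upwards (0.11). The sums also did not overlap for the myeloid progenitor and blast markers (14.41 to 14.44 with DB2313, 14.37 to 14.40 with vehicle). Nor did they for the 2 erythroid markers measured (6.24 to 6.31 with DB2313, 6.39 to 6.50 with vehicle). For the B cell, T cell, hepatocyte and stroma markers the sums of the groups overlapped. Among all genes tested, taken singly, the groups did not overlap in 19.3%. The brightest genes of a list weigh most in its sum, and the cause of these differences was not tested. Markers of B cells (3 measured), T cells (4), erythroid cells (2), hepatocytes (5) and stroma (5) had signals between 2.73 and 5.84, and none passed. Arrays correlated across genes at r = 0.996 within groups and 0.994 to 0.995 between groups. Spi1 itself had a log2 fold change of -0.37 (SE 0.064, limma adjusted p = 0.0342). Whether this call held under the alternative settings described below was not checked.

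In limma, none of the 8 complement genes passed the adjusted threshold of 0.05, and none reached an unadjusted p of 0.05. Over all genes tested, 1.81% passed after adjustment and 12.7% had an unadjusted p under 0.05. At a background of 1.81%, a count of 0 among 8 genes does not set them apart. The values of the groups overlapped for all 8 genes, and for all genes tested they did not overlap in 19.3%. The log2 difference of DB2313 minus vehicle was above 0 for 6 of the 8 genes and below 0 for C1qb and Cr1l. The median absolute difference was 0.05, beside 0.08 over all genes, and the median difference was 0.03, beside -0.002. The 95% confidence intervals of all 8 genes lay within 1.5-fold in either direction, as did those of 21162 of all 22180 genes. Cd55 came closest to that bound, at 1.48-fold. These bounds concern array signals, and for the 5 genes below the median signal a change in transcript may be understated.

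**Figure D1:**
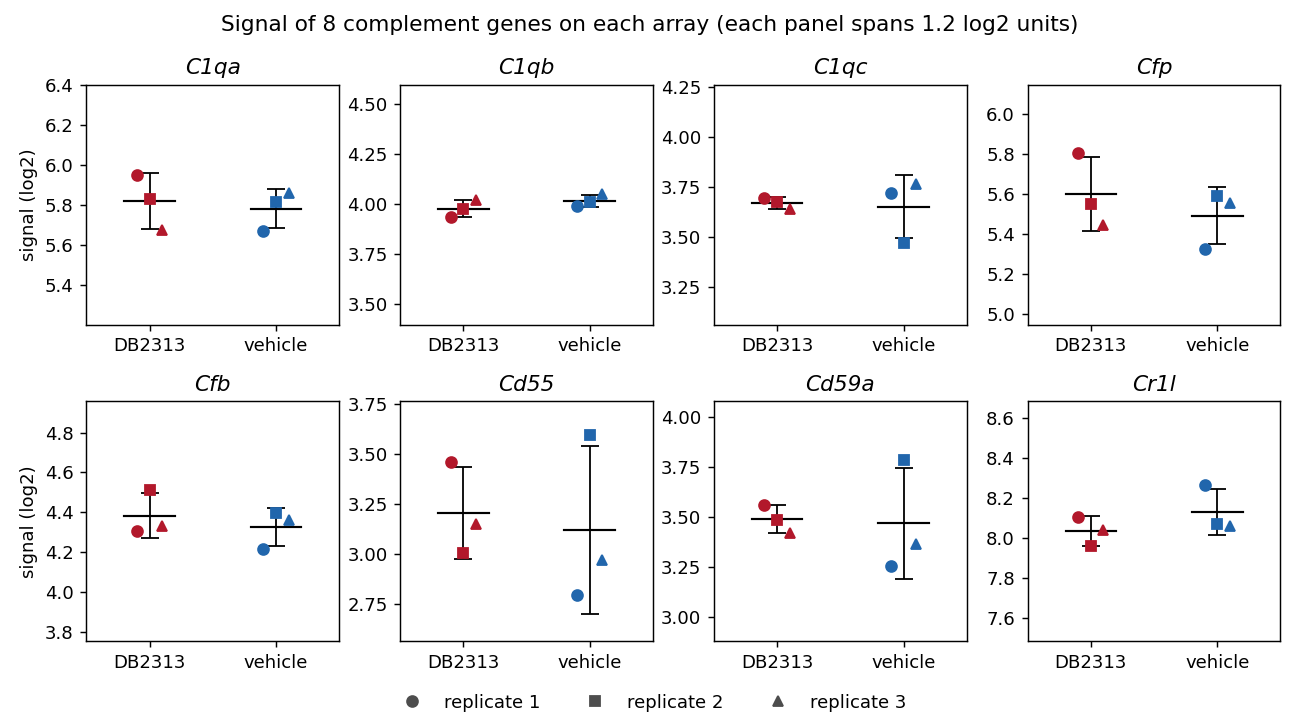
Signal (log2) of each complement gene on each array, with DB2313 at the left and vehicle at the right of every panel; bars are the mean and SD of 3 arrays, and each panel spans 1.2 log2 units. The groups overlap in all 8 panels, and Cd55 has the widest spread, with vehicle arrays from 2.80 to 3.60.

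Promoter sequences from RefSeq (GRCm38.p6, 250 bases before to 50 after the annotated start) were found for C1qb, C1qc, Cfp, Cd55, Cd59a, Cr1l and C3, and C1qa and Cfb were not matched. They were searched on both strands for GAGGAA, the core of many PU.1 sites, and for the longer GAGGAAGT, which contains it. GAGGAA stood in 4 of the 7 windows, against 28.3% of all 32851 promoter windows, and GAGGAAGT in 1 of the 7, against 3.2% of all windows. The 4 windows with GAGGAA are printed because they show which of these genes carry that core beside the start, with the matched letters in capitals (a match on the other strand reads TTCCTC). They are written 5′ to 3′ on the strand of the gene. A match is a description of the letters and not a binding site.
C1qb: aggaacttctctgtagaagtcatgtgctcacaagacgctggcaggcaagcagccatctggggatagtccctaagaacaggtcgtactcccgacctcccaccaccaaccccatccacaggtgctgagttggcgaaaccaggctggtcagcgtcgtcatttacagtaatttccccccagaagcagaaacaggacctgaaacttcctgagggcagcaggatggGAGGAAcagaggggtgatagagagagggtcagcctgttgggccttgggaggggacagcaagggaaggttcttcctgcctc
C1qc: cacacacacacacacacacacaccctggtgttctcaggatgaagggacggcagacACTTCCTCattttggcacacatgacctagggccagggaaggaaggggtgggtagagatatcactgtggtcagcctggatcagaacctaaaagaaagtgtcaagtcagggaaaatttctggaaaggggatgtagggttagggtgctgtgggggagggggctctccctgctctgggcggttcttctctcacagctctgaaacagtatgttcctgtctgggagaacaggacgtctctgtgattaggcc
Cfp: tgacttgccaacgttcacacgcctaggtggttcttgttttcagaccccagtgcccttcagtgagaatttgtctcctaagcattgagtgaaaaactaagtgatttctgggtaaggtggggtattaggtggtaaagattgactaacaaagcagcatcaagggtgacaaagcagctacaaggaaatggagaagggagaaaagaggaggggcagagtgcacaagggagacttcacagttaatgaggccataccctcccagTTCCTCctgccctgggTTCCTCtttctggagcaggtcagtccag
Cd59a: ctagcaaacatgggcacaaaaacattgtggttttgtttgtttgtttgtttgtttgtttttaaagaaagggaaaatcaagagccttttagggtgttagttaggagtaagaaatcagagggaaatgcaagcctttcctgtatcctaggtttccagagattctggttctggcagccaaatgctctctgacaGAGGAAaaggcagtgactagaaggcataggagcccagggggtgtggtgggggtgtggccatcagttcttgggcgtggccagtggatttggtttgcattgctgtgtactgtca
The C1qb window is chr4:136886151-136886450 (minus strand), with its match at -30 from the start. The C1qc window is chr4:136892865-136893164 (minus strand), and its match, the only GAGGAAGT among the 7, begins at -195. The Cfp window is chrX:20931506-20931805 (minus strand), with matches at 6 and 22 after the start. The Cd59a window is chr2:104095551-104095850 (plus strand), with a match at -62. None of these 4 genes passed the test, and their values are given by role in what follows.

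C1qa, C1qb and C1qc encode the 3 chains of C1q, and in the RefSeq gene order C1qc lies between C1qb and C1qa. C1qa (gene ID 12259) had signals of 5.95, 5.83 and 5.68 with DB2313 and of 5.67, 5.82 and 5.86 with vehicle. The highest array was DB2313 replicate 1 and the lowest vehicle replicate 1, with the other arrays interleaved. The log2 difference was 0.04 (SE 0.090, 95% interval -0.17 to 0.25, limma adjusted p = 0.912). C1qa was the only C1q chain with a mean signal above the median of all genes.

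C1qb (gene ID 12260) gave the tightest values of the 8 genes, 3.94, 3.98 and 4.02 with DB2313 and 3.99, 4.01 and 4.05 with vehicle. All 6 arrays fell within 0.12 log2 units, and DB2313 replicate 3 lay above 2 of the vehicle arrays. Its log2 difference was -0.04 (SE 0.059, interval -0.18 to 0.10, limma adjusted p = 0.845). C1qc (gene ID 12262) had 3.69, 3.68 and 3.64 with DB2313 and 3.72, 3.47 and 3.77 with vehicle. The DB2313 arrays of C1qc sat inside the vehicle range, which vehicle replicate 2 widened downwards. The log2 difference of C1qc was 0.02 (SE 0.087, interval -0.18 to 0.22, limma adjusted p = 0.958). Of the 3 chains, C1qa and C1qc thus had differences above 0 and C1qb one below 0, all smaller than their standard errors.

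In the alternative pathway, Cfp encodes properdin, which stabilises the convertase, and Cfb encodes factor B, which supplies its protease. Cfp (gene ID 18636) had 5.81, 5.55 and 5.45 with DB2313 and 5.33, 5.59 and 5.56 with vehicle. DB2313 replicate 1 stood highest and vehicle replicate 1 lowest, as for C1qa, and the other 4 arrays lay between 5.45 and 5.59. The log2 difference of 0.11 was the largest in size among the 8 genes (SE 0.112, interval -0.15 to 0.37, limma adjusted p = 0.762). Without DB2313 replicate 1 it was 0.01 and without vehicle replicate 1 it was 0.03. Of all genes tested, 63.7% had a smaller absolute difference than Cfp.

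Cfb (gene ID 14962) had 4.31, 4.51 and 4.33 with DB2313 and 4.22, 4.40 and 4.36 with vehicle. DB2313 replicate 2 was the highest array and vehicle replicate 1 the lowest, and the remaining values overlapped. The log2 difference was 0.06 (SE 0.082, interval -0.13 to 0.25, limma adjusted p = 0.836). C2, the classical pathway relative of factor B and its neighbour in the gene order, averaged 3.99 ± 0.21 with DB2313 and 3.96 ± 0.12 with vehicle (SD, n = 3 each).

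Among the membrane regulators, Cr1l encodes the mouse protein Crry, which limits the convertases of both pathways on mouse cells. Cr1l (gene ID 12946) was the brightest row among the 8 genes, with a mean signal above that of 84.2% of all genes. It had 8.11, 7.96 and 8.04 with DB2313 and 8.26, 8.07 and 8.06 with vehicle. Vehicle replicate 1 lay highest and DB2313 replicate 2 lowest, and DB2313 replicate 1 exceeded the other 2 vehicle arrays. The log2 difference was -0.10 (SE 0.079, interval -0.28 to 0.09, unadjusted p = 0.262, limma adjusted p = 0.691), the smallest p of the 8 genes. The interval reached 1.21-fold downwards and 1.06-fold upwards, for a row well away from the dim end of the scale. The log2 difference was -0.03 without vehicle replicate 1 and -0.13 without DB2313 replicate 1.

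Over the 6 arrays, the genes with values most like those of Cr1l were Dkc1 (Pearson's r = 0.994), Wdr43 (0.989) and Cdkl1 (0.988). With 6 arrays and 22180 genes, high values arise easily, and 51 genes had an r above 0.95. Cr1l lies between Cd46 and Cr2 in the gene order, both of the same regulator family. Cd46, a cofactor for convertase breakdown that in the mouse is largely confined to the testis, averaged 4.25 ± 0.21 with DB2313 and 4.12 ± 0.12 with vehicle (SD, n = 3 each). Cr2, the complement receptor of B cells, averaged 3.65 ± 0.18 with DB2313 and 3.83 ± 0.20 with vehicle (SD, n = 3 each). Neither passed the test (limma adjusted p = 0.709 and 0.629).

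Cd55 encodes decay-accelerating factor, which takes convertases apart. Cd55 (gene ID 13136) had 3.46, 3.01 and 3.15 with DB2313 and 2.80, 3.60 and 2.97 with vehicle. Vehicle arrays gave both the highest and the lowest value and spanned 0.80 log2 units, so the DB2313 arrays lay wholly inside their range. The log2 difference was 0.08 (SE 0.208, interval -0.40 to 0.57, limma adjusted p = 0.916), the widest interval of the 8 genes. Without vehicle replicate 2 the difference was 0.32 and without vehicle replicate 1 it was -0.08, and neither passed. The gene lies beside its copy Cd55b, which averaged 3.06 ± 0.06 with DB2313 and 3.06 ± 0.14 with vehicle (SD, n = 3 each).

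Cd59a encodes the inhibitor of the membrane attack complex on mouse cells. Cd59a (gene ID 12509) had 3.56, 3.48 and 3.42 with DB2313 and 3.25, 3.78 and 3.37 with vehicle. As for Cd55, vehicle replicate 2 was highest, vehicle replicate 1 lowest, and the DB2313 arrays lay between them. The log2 difference was 0.02 (SE 0.132, interval -0.29 to 0.33, limma adjusted p = 0.968). Its neighbouring copy Cd59b averaged 3.18 ± 0.18 with DB2313 and 2.99 ± 0.03 with vehicle (SD, n = 3 each), a log2 difference of 0.19 (limma adjusted p = 0.478). The copies have similar sequences, and whether their rows share probes was not checked. Across the 8 genes, vehicle replicate 1 gave the lowest value for 5, namely C1qa, Cfp, Cfb, Cd55 and Cd59a. How often this array was lowest over all genes was not counted, so the count is not read as particular to these genes.

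**Figure D2:**
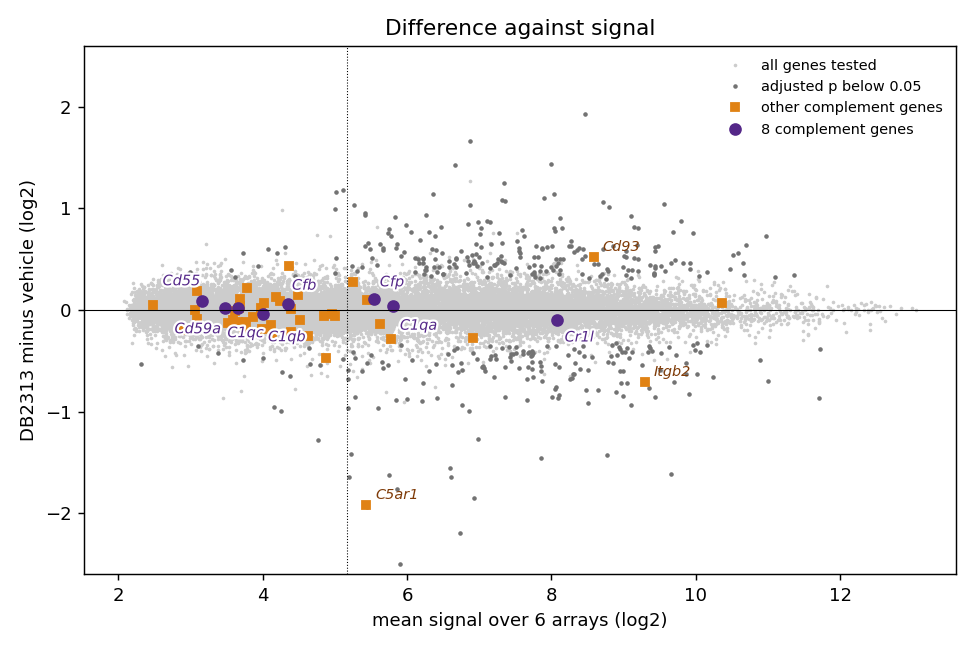
Log2 difference of DB2313 minus vehicle against mean signal over 6 arrays, for all genes tested (light grey), genes with an adjusted p below 0.05 (dark grey), 42 other complement genes (squares) and the 8 complement genes (circles); 2 genes lie outside the axis, and the dotted line is the median signal of 5.17. The 8 circles lie close to 0. Among the squares C5ar1 lies furthest from 0, and C5ar1, Itgb2 and Cd93 are labelled because they passed after adjustment.

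The wider complement system was described from lists grouped by role, which hold 46 other genes, of which 42 were measured. Among these 42 genes 1 rose and 2 fell, beside 1.02% higher and 0.789% lower over all genes, and all 3 encode receptors. C5ar1, the receptor for the C5a fragment, averaged 4.48 ± 0.12 with DB2313 and 6.39 ± 0.27 with vehicle (SD, n = 3 each), a log2 difference of -1.91 (limma adjusted p = 0.00110), or -1.10 with an offset of 32 added to the linear signals, where it also passed (limma adjusted p = 0.00178). Itgb2, the beta chain of complement receptors CR3 and CR4, had a log2 difference of -0.70 (limma adjusted p = 0.0249). Cd93, once described as a C1q receptor, had 0.52 (limma adjusted p = 0.0322). Itgb2 and Cd93 each lost the call in 5 of 6 settings that left out 1 array, with adjusted p up to 0.0966 and 0.121, whereas C5ar1 passed in all 6.

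Outside the receptors, none of the 34 other complement genes passed in limma, beside 1.81% of all genes. An unadjusted p under 0.05 was found for 4 of the 34, beside 12.7% of all genes, and the groups did not overlap for 4 of the 34, beside 19.3%, so none of these counts sets the 34 genes apart. The largest differences among those with an unadjusted p under 0.05 were C1rb, a copy of the C1r protease gene, with a log2 difference of -0.47 (unadjusted p = 0.00448, limma adjusted p = 0.133), and Cpn1, a carboxypeptidase that inactivates C5a, with 0.44 (unadjusted p = 0.00327, limma adjusted p = 0.110). Their groups did not overlap. The others were Mbl2, a mannose-binding lectin of the lectin pathway (-0.21), and C8g, a chain of the pore complex (0.27), both with an adjusted p of 0.387. C8b, another chain of that complex, had -0.24, and Cpn2, the partner of Cpn1, had -0.19 (limma adjusted p = 0.470 and 0.588). The median absolute difference was 0.11 over these 34 genes and 0.28 over the 8 receptors. It was 0.05 over the 8 components and regulators and 0.08 over all genes. The lists were chosen with earlier results of these data known, so these medians only describe them. Of the 34 genes, 30 had a mean signal below the median of all genes.

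**Figure D3:**
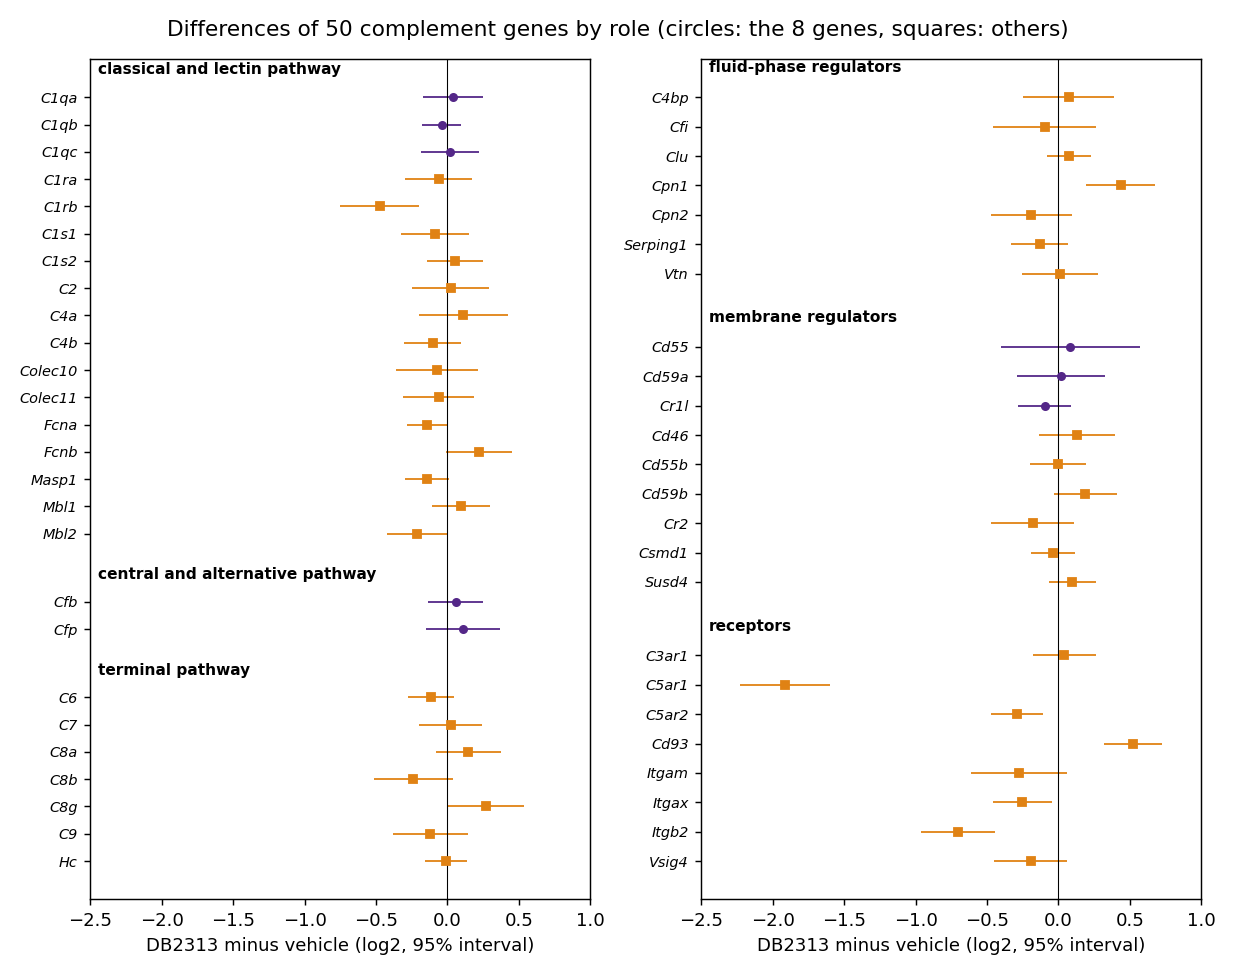
Log2 difference of DB2313 minus vehicle with its 95% interval for 50 complement genes, grouped by role, with circles for the 8 genes and squares for the 42 others. All 8 circles have intervals that include 0, and the receptors C5ar1, Itgb2 and Cd93 are the genes that passed after adjustment.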

How the data were processed

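Per the submitters' processing notes, the authors used Affymetrix Expression Console; the steps of background correction and summarisation are not stated in the labels. Log2 signals are what the deposited table holds, as judged from its values (1.67 to 13.22), for 41345 rows on 6 arrays. Array medians of 4.77 to 4.82 point to a common scaling before deposit, so a change in total RNA would not be visible. Dim signals understate fold changes. In the platform annotation 23521 rows had 1 symbol, 1814 several and 16010 none; rows with several or none were left out. The brightest row per gene over the arrays left 22180 genes, and 0 symbols needed updating by RefSeq gene ID.

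DB2313 was compared with vehicle by limma 3.58.1 in R 4.3.3 (lmFit, eBayes, 2-sided), with Benjamini-Hochberg adjustment over all genes at 0.05, and tested on simulated data. The number of arrays limits the precision. Members and lists were chosen with earlier results of these data known. Named were all members, Spi1, and Elane, Cd34, Ptprc, Cd68 and Mrc1 from the marker lists. Other complement genes past the threshold or with the 2 smallest p in their list were named too. So were the 3 genes most like the member with the smallest p. C2, Cd46 and Cd55b were added as neighbours. The alternatives changed 1 choice each: quantile normalization, centring of each array on its median, a filter below the 0.25 quantile of signal, addition of 32 to linear signals, a trended robust prior, a replicate block, averaging of a gene's rows, testing of all rows, and leaving out each array.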

Additional observations from a re-analysis of the deposited data

How the results depend on the processing

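None of the 8 complement genes passed limma's adjusted p of 0.05, or an unadjusted p of 0.05, under any of the 14 alternatives, except that the filter at the 0.25 quantile left out C1qc, Cd55 and Cd59a, so these had no value there. The sign of the difference held for all 8 genes in the settings that kept every array. With 1 array left out it ranged from -0.028 to 0.110 for C1qa, -0.0729 to 0.0747 for C1qc, -0.00574 to 0.0981 for Cfb, -0.0778 to 0.322 for Cd55 and -0.0856 to 0.179 for Cd59a, so none of these 5 has a settled direction. It kept its sign for C1qb, Cfp and Cr1l. With the offset of 32, which damps dim signals, all 8 differences were smaller in size, at 0.07 for Cfp and -0.09 for Cr1l. The count over all genes, 401, was 830 with the offset of 32, 920 with the trended robust prior, 190 with the replicate block, 142 with all rows tested, and 136 to 187 with 1 array left out. The other complement genes past the threshold, 3, were 1 with all rows tested and 1 to 2 with 1 array left out. Same-numbered arrays of the groups deviated together little (r = 0.02, 0.08 and 0.008, where all pairs across groups ranged from -0.07 to 0.08). Of 6 arrays, 4 were most like their own number. These values do not settle whether the numbers pair the samples, and the main fit did not pair them. Under the replicate block Cd93 had a limma adjusted p of 0.0666. The cause of these shifts was not tested. Background was not measured, so how far the signals of the 5 dim genes understate a change could not be sized.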
